A study of Mus musculus with 28 samples.

Results

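Heat shock chaperones are represented here by 10 genes: Hspa8, Hsph1, Hspa4, Hspa4l, Dnaja1, Dnajb1, Hsp90aa1, Hsp90ab1, Hspd1 and Hspe1. They were taken by name from the 43629 genes of the count table, and all 10 had a row and passed the filter on low counts in every fit. The genes were chosen with earlier results of these data known. A count of members set beside the share of all genes therefore describes the list and is no test of it. Their transcripts were followed in 28 libraries from the cortex of Glt25d2 BacTRAP mice. In this line a ribosome tag is driven by Glt25d2 (now Colgalt2), a gene used to mark layer 5 projection neurons. RNA pulled down with the tagged ribosomes is called IP, and cortex RNA before the pulldown is called input. Mice were healthy (5 IP and 5 input libraries), or had experimental autoimmune encephalomyelitis (EAE), induced with MOG35-55, in its acute phase at day 15 (5 and 5) or its chronic phase at day 30 (4 and 4). All 6 groups carried the BacTRAP transgene, and the labels give no age, sex or pooling of animals and no treatment of the healthy mice. Whether each library stands for its own mouse is not stated, and a p-value here therefore weighs a difference against library spread alone, part of which may be technical.

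As background, molecular chaperones bind unfolded or partly folded proteins and use ATP to release them in a state that can fold. J-domain proteins such as Dnaja1 and Dnajb1 bring substrates to HSP70 proteins such as Hspa8 and start their ATP hydrolysis, and HSP110 proteins such as Hsph1, Hspa4 and Hspa4l exchange the nucleotide. HSP90 proteins act later on kinases, receptors and other clients, and Hspd1 with its lid Hspe1 folds proteins inside mitochondria. Heat shock factors raise several of these genes under stress by binding heat shock elements, arrays of inverted nGAAn units. Hspa8 and Hsp90ab1 are made constitutively and are abundant in brain.

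On GRCm38, the build of the count table, the HSP70 and HSP110 genes are Hspa8 (ENSMUSG00000015656) at chr9:40800984-40805200, plus strand; Hsph1 (ENSMUSG00000029657) at chr5:149614287-149636376, minus strand; Hspa4 (ENSMUSG00000020361) at chr11:53259814-53300457, minus strand; and Hspa4l (ENSMUSG00000025757) at chr3:40744495-40796103, plus strand. The J-domain genes are Dnaja1 (ENSMUSG00000028410) at chr4:40722150-40737149, plus strand, and Dnajb1 (ENSMUSG00000005483) at chr8:83608175-83611902, plus strand. The HSP90 genes are Hsp90aa1 (ENSMUSG00000021270) at chr12:110690605-110702728, minus strand, and Hsp90ab1 (ENSMUSG00000023944) at chr17:45567775-45573271, minus strand. The mitochondrial pair is Hspd1 (ENSMUSG00000025980) at chr1:55077835-55088243, minus strand, and Hspe1 (ENSMUSG00000073676) at chr1:55088132-55091307, plus strand. Counts were taken over the exons of each gene.

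The upstream sequences are shown because heat shock elements are the DNA that the heat shock factors read. The 250 bases before each start site annotated by RefSeq on GRCm38.p6 were searched on both strands for GAANNTTC or TTCNNGAA, which are 2 adjoining inverted units. Of the members, 7 had such a window, and 4 of the 7 held the letters, against 14.5% of 27025 genes with a window. An array of at least 3 such alternating units, spaced in the same way and so also holding the shorter letters, stood in 2 of the 7, Hspd1 and Hspe1, against 0.514% of all genes. In the stretches below, printed 5′ to 3′ on the strand of the gene, the capitals mark the GAA and TTC units.
Hspe1, chr1:55088053-55088082, plus strand: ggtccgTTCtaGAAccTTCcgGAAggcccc
Hspd1, chr1:55088053-55088082, minus strand: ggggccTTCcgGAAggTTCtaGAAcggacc
Hsph1, chr5:149636351-149636380, minus strand: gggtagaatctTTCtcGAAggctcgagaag
Dnaja1, chr4:40722333-40722362, plus strand: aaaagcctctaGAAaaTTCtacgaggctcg

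Hspd1 and Hspe1 are read in opposite directions from a shared stretch of chromosome 1, and the first 2 sequences are the same 4 units seen from either gene. The array (55088059 to 55088076) ended 71 bases before the start of Hspe1 and 126 bases before a start of Hspd1, and it also lay in a non-coding part of an exon of another Hspd1 transcript. The 2 units of Hsph1 stood 25 and 46 bases before its 2 annotated starts, inside an exon of a longer Hsph1 transcript, and those of Dnaja1 116 bases before a start, inside exons of a non-coding Dnaja1 transcript and of the lincRNA Gm6297. Hspa4, Hspa4l and Dnajb1 had windows without these letters. Matches of this kind describe letters and not binding.

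The libraries differed by fraction. Input libraries held 17848273 to 27915940 counts and 20714 to 21734 detected genes, and IP libraries 6198088 to 21229550 counts and 9566 to 17995 genes. The spread between replicates, as edgeR's common coefficient over all genes tested, came to 1.06 in IP and 0.101 in input, and part of it may be technical. A change between phases thus had to be larger in IP to be detected. For the chronic change from healthy, the SE of Hsp90aa1 was 0.12 in IP and 0.04 in input. That of Hspe1 was 0.49 and 0.05. Against input, healthy IP held more of 4 of the 6 layer 5 markers and less of 4 of the 6 oligodendrocyte markers, and in each EAE phase 5 layer 5 markers were higher in IP. In acute IP 4 oligodendrocyte, 3 astrocyte and 2 of 5 inhibitory neuron markers were lower than in input and none was higher. In chronic IP 2 oligodendrocyte, 1 astrocyte and 1 inhibitory neuron marker were higher than in input, and 3, 1 and 1 were lower. Colgalt2, the driver of the tag, stood at 68.4 ± 20.4 CPM (SD, n = 5) in healthy IP and 53.1 ± 2.41 (n = 5) in healthy input. Inhibitory neuron markers summed to 565 to 1333 CPM in IP. Leukocyte markers were at or near 0 in IP, with a sum of at most 5.03 CPM. Endothelial markers summed to 13.1 to 53.5 CPM in healthy IP and 6.17 to 12.2 in healthy input, without overlap. Their median log2 difference was 1.14 in healthy, 0.48 in acute and 1.25 in chronic mice, and none of the 4 was called.

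Together the 10 transcripts made up 1.11 to 1.84% of all counts in the IP libraries and 0.57 to 0.688% in the input libraries, without overlap. Per kilobase of summed exon length, Hsp90ab1 led in every group and Hspa8 came next, with Hsp90aa1 behind them and Hspa4l last. In healthy input these levels were 579 ± 14.9 CPM per kb for Hsp90ab1, 376 ± 15.1 for Hspa8 and 306 ± 12.1 for Hsp90aa1 (SD, n = 5 each), and no library of a higher gene overlapped the next. Hspd1 (75.8 ± 2.60) and Hspe1 (63.6 ± 1.37) followed, and Hspa4, Hsph1, Dnaja1 and Dnajb1 lay between 47.0 and 51.6, each overlapping its neighbour. Hspa4l stood at 17.6 ± 1.48. The divisor sums all annotated exons of a gene, 11792 bases for Hspa4l, so these ranks depend on the annotation. Without it, Hspa4l was at 208 ± 17.4 CPM in healthy input, above Dnajb1 (106 ± 5.74) and Hspe1 (93.7 ± 2.02). In healthy IP the order of the leading 3 was the same at higher levels, 1277 ± 133, 982 ± 166 and 621 ± 77.0 CPM per kb, but Hsp90ab1 and Hspa8 overlapped. Hspe1 stood at rank 5 in healthy input and at rank 8 in healthy IP, where it overlapped both neighbours. Hsph1 moved from rank 5 in healthy IP to rank 4 in chronic IP, where it overlapped Hspd1 at rank 5. The plot of chaperone transcripts by library shows each gene on the CPM scale, which divides counts by the scaled library size.

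**Figure D1:**
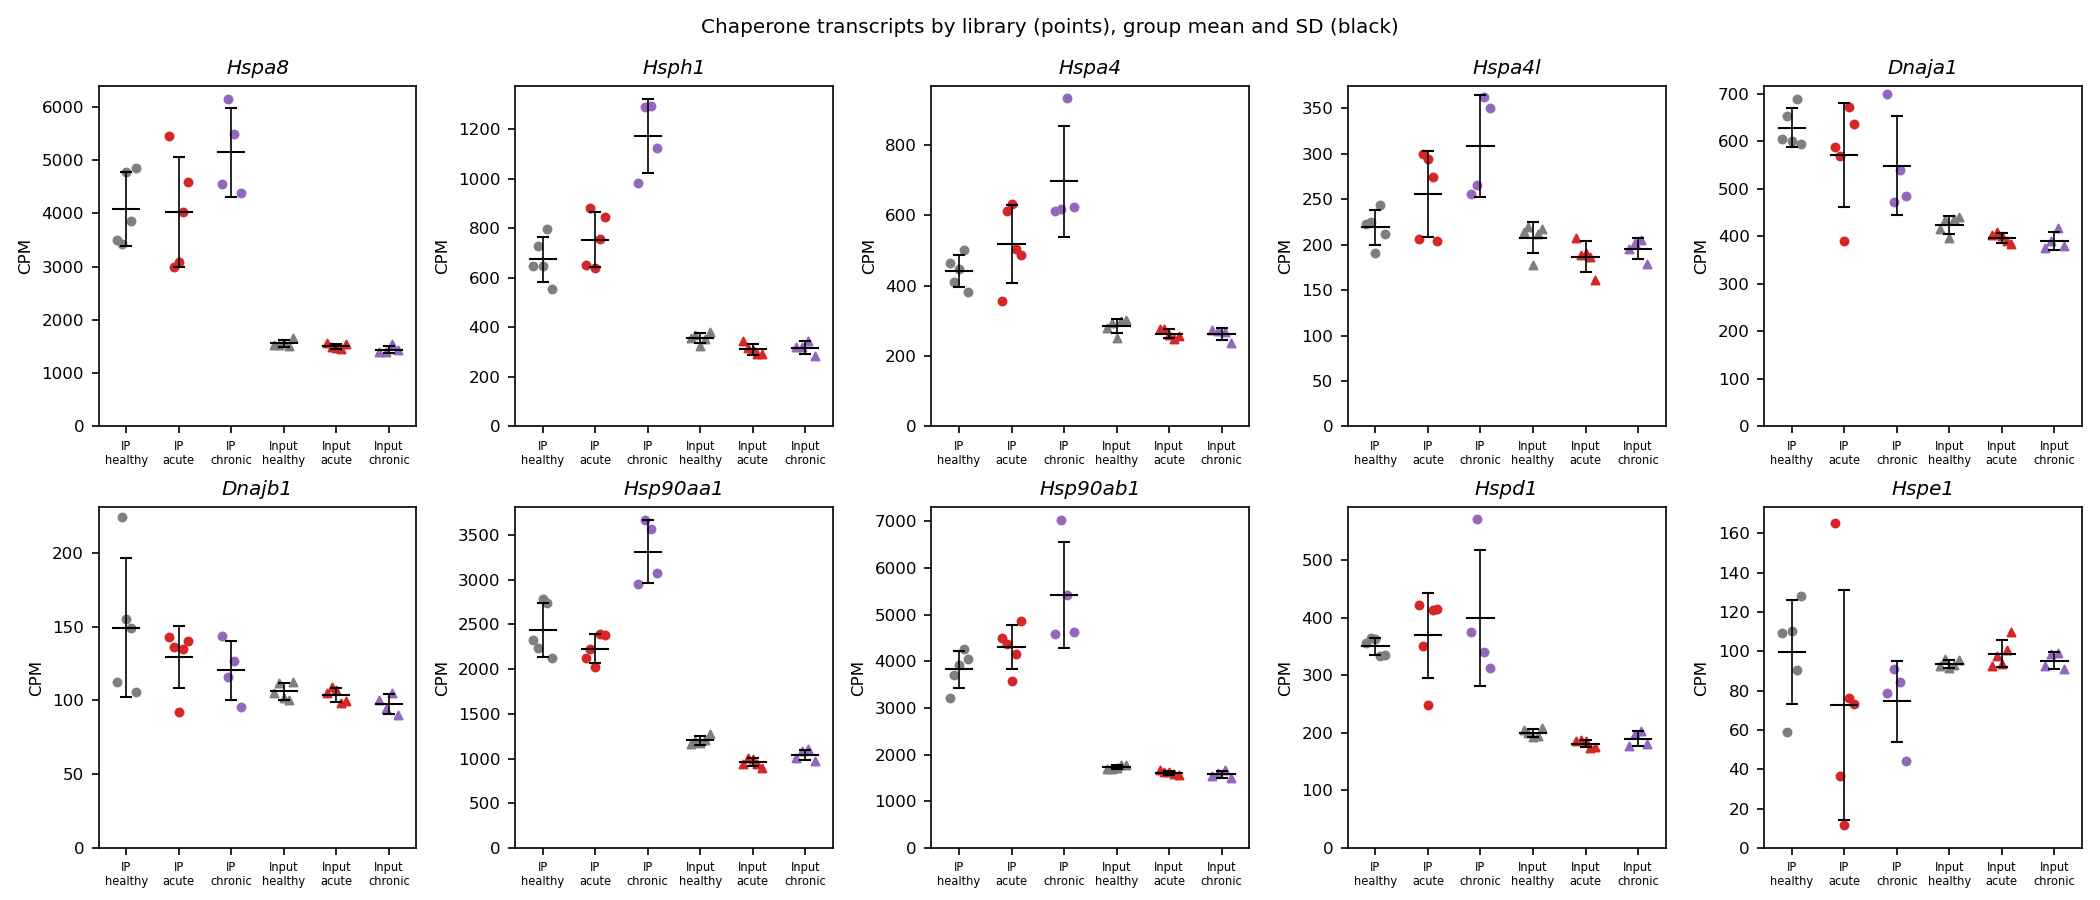
CPM of each of the 10 chaperone transcripts (y axis, from 0, scaled per panel) in each library (points) of the IP groups (circles) and input groups (triangles), with the group mean and SD in black. Hspa8, Hsph1, Hspa4, Hsp90aa1, Hsp90ab1 and Hspd1 sit higher in every IP library than in any input library, while Hspe1 spreads from 11.6 to 165 CPM in acute IP around input levels of 90.9 to 109.9.

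The first comparison asked which chaperone transcripts were enriched on the tagged ribosomes. In healthy mice 8 of 10 were higher in IP than in input and none was lower (edgeR quasi-likelihood test, adjusted p under 0.05), where 7.2% of the 16580 genes tested were called higher and 14.4% lower. In the acute phase it was again 8 of 10 higher, against 8.56% of genes, and none lower, against 10.1%. In the chronic phase it was 8 higher, against 8.74%, and none lower, against 20%. All IP libraries stood above all input libraries for 7 members in healthy mice (7.86% of genes), 6 in acute mice (7.45%) and 8 in chronic mice (10.2%). The members' median log2 difference was 0.72 in healthy and 1.24 in chronic mice, with the acute phase between them, while that of all genes was -0.23 and -0.32. In these bulk samples a different share of cells and a different amount of RNA per cell cannot be told apart.

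Hspa8, the constitutive HSP70 of the cytosol, was the most enriched member in healthy mice. The healthy IP libraries held 3500, 3427, 4778, 3851 and 4853 CPM and the healthy input libraries 1537, 1532, 1570, 1508 and 1668. Every IP library was above every input library, and the log2 difference was 1.38 ± 0.13 (SE, adjusted p = 4.5e-09). In the acute phase the difference was 1.42 ± 0.13 (adjusted p = 1.18e-09) and in the chronic phase 1.84 ± 0.15 (adjusted p = 9.46e-11).

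The HSP90 pair was enriched to a like degree. Hsp90ab1, the constitutive HSP90 of the cytosol, was at 3216, 3703, 3922, 4259 and 4055 CPM in healthy IP and at 1702, 1700, 1710, 1787 and 1783 in healthy input. The log2 difference was 1.14 ± 0.10 in healthy, 1.41 ± 0.10 in acute and 1.78 ± 0.11 in chronic mice (adjusted p at most 6.29e-10). Hsp90aa1, the HSP90 gene known for its response to stress, differed by 1.02 ± 0.08, 1.22 ± 0.08 and 1.67 ± 0.09 (adjusted p at most 2.75e-10). For both genes the IP and input libraries of a phase did not overlap.

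The HSP110 members, which reset HSP70 for its next round, were not alike. Hsph1 differed by 0.92 ± 0.11 in healthy, 1.28 ± 0.11 in acute and 1.88 ± 0.12 in chronic mice, and Hspa4 by 0.63 ± 0.13, 0.97 ± 0.13 and 1.41 ± 0.14. Hspa4l, the least abundant member per length, was not called in healthy mice, where its log2 difference was 0.08 (95% interval -0.16 to 0.31, adjusted p = 0.775). It was higher in acute IP (0.45 ± 0.12, adjusted p = 0.00759, and 0.0506 without acute replicate 2) and in chronic IP (0.66 ± 0.14, adjusted p = 0.00061).

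The J-domain partners were enriched less than Hspa8. Dnaja1, which feeds substrates to HSP70, differed by 0.57 ± 0.11, 0.52 ± 0.11 and 0.49 ± 0.12 in healthy, acute and chronic mice, and the chronic call was lost without chronic replicate 1 (adjusted p = 0.0636). Dnajb1, its stress-responsive relative, held 112, 224, 155, 149 and 106 CPM in healthy IP and 105, 112, 102, 100 and 113 in healthy input. These groups overlapped, and replicate 2 stood highest in IP. The log2 difference of 0.49 ± 0.16 was called (adjusted p = 0.0219), but not without healthy replicate 2 (0.173), replicate 3 (0.0785) or replicate 4 (0.0654). It was not called in acute (0.32 ± 0.16, adjusted p = 0.176) or chronic mice (0.30 ± 0.18, adjusted p = 0.235).

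The mitochondrial pair parted. Hspd1, the chaperonin barrel, was at 356, 364, 362, 334 and 335 CPM in healthy IP and at 205, 200, 192, 195 and 209 in healthy input, and differed by 0.81 ± 0.13, 1.03 ± 0.13 and 1.07 ± 0.15 on the log2 scale (adjusted p at most 5.16e-05). Hspe1, its lid, was at 109, 58.9, 110.5, 90.4 and 128 CPM in healthy IP and at 92.4, 96.2, 91.7, 92.8 and 95.6 in healthy input. The IP values lay on both sides of the input values, and the difference was 0.09 (95% interval -0.59 to 0.76). In acute mice it was -0.44 (-1.12 to 0.23), with IP libraries at 165, 36.8, 11.6, 76.2 and 73.0 CPM. Without acute replicate 1, the highest of these, the acute difference was -1.01 and was called (adjusted p = 0.0289). In chronic mice all 4 IP libraries (78.6, 90.9, 84.2 and 44.2 CPM) lay below every input library (30% of genes were apart in that direction), though the nearest libraries were both at 90.9, and the difference of -0.36 was not called (adjusted p = 0.599).

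**Figure D2:**
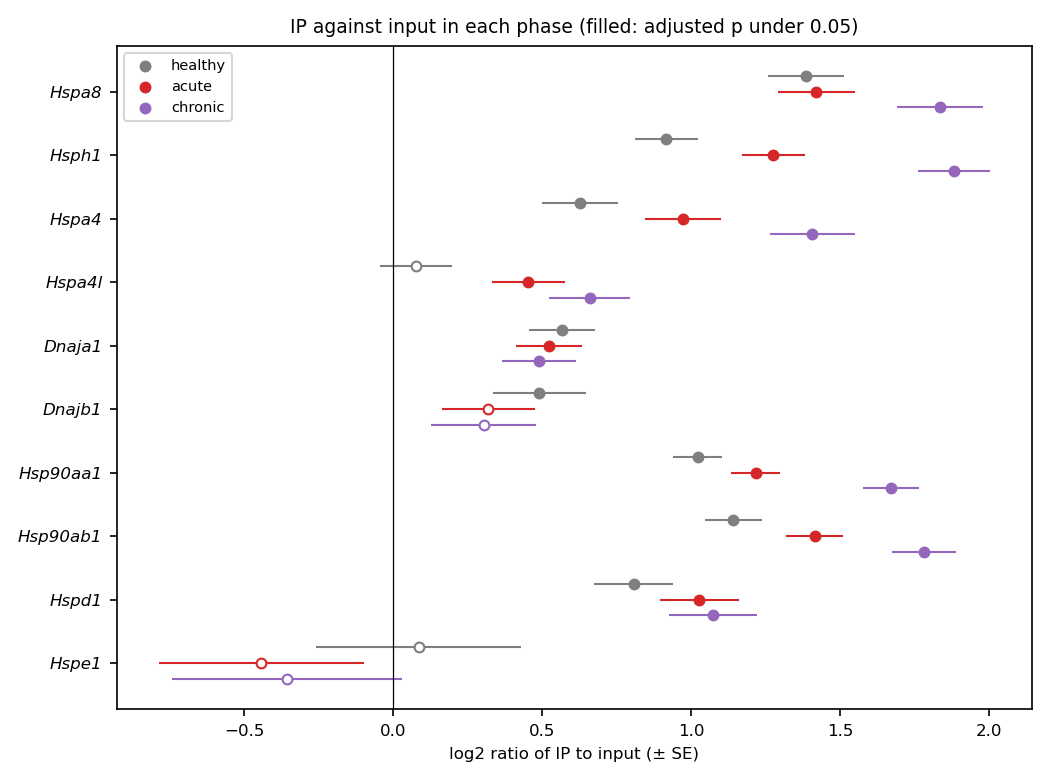
Log2 difference of IP from input (x axis, points, with SE as bars) for each chaperone gene in healthy, acute and chronic mice, with filled points for an adjusted p under 0.05. Hsph1 runs from 0.92 to 1.88 across the phases, Dnaja1 stays between 0.49 and 0.57, and Hspe1 lies around 0.

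Ratios of transcripts within a library do not depend on how libraries are scaled, so pairs that work together were also compared that way. The 5 pairs were chosen after the levels had been seen and were tested in 9 comparisons each, 45 exact two-sided permutation tests in all. The counts of Hspd1 were 2.08 to 2.21 times those of Hspe1 in the healthy input libraries and 2.61 to 6.18 times in healthy IP, without overlap (log2 difference 0.77, exact permutation p = 0.00794, adjusted p = 0.0397). In acute mice the input libraries lay at 1.59 to 2.01 and the IP libraries at 2.55 to 21.4 (log2 difference 1.91, exact permutation p = 0.00794, adjusted p = 0.0397). In chronic mice it was 1.92 to 2.05 and 4.04 to 7.06, where 4 libraries against 4 cannot reach an exact permutation p under 0.0286, the value found (adjusted p = 0.0794). The 2 genes are annotated on opposite strands with 112 shared bases and were counted without strand, so reads there cannot be given to either gene. The part of this in the ratio was not tested.

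Dnaja1 and Dnajb1 were lower relative to Hspa8 in IP. In healthy mice Dnaja1 had 0.253 to 0.289 counts per count of Hspa8 in input and 0.123 to 0.191 in IP (log2 difference -0.80, exact permutation p = 0.00794, adjusted p = 0.0397). In acute mice the input ratio was 0.249 to 0.274 and the IP ratio 0.108 to 0.191 (-0.88, the same exact p), and in chronic mice 0.266 to 0.281 and 0.0768 to 0.154 (-1.35, exact permutation p = 0.0286, adjusted p = 0.0794). Every IP library was thus below every input library of its phase. For Dnajb1 the log2 difference of this ratio was -0.93 in healthy mice, with overlap (adjusted p = 0.0649 by the exact permutation test), -1.08 in acute mice, without overlap (adjusted p = 0.0397 by that test), and -1.53 in chronic mice, without overlap (adjusted p = 0.0794 by that test).

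**Figure D3:**
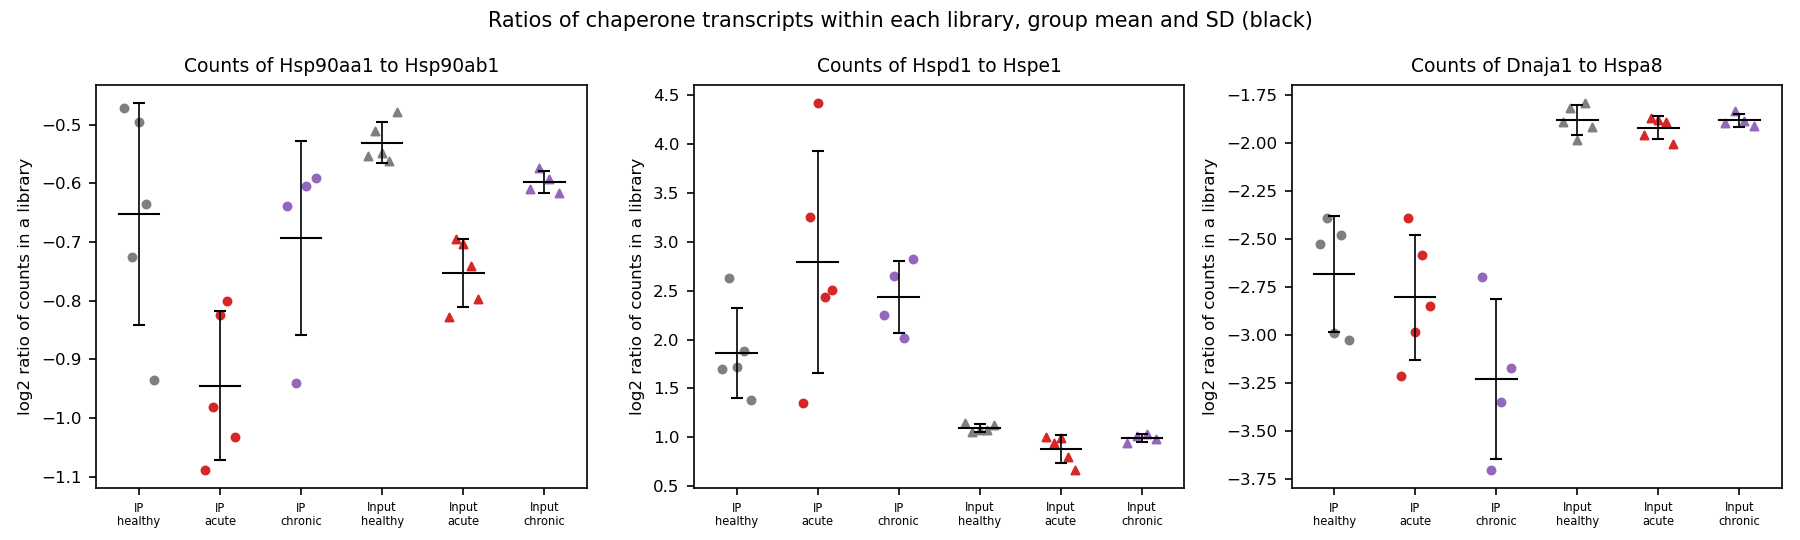
Log2 ratio of counts in each library (points) for Hsp90aa1 to Hsp90ab1, Hspd1 to Hspe1 and Dnaja1 to Hspa8, in the IP groups (circles) and input groups (triangles), with the group mean and SD in black. In input, Hsp90aa1 to Hsp90ab1 separates the 3 phases, and in every phase Hspd1 to Hspe1 is higher and Dnaja1 to Hspa8 lower in IP than in input.

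The next comparison asked what EAE did to these transcripts on the tagged ribosomes. In the acute phase none of the 10 was called against healthy IP (edgeR quasi-likelihood test, no member at an unadjusted p under 0.05, and none called by DESeq2 or voom), where 0.0647% of 13914 genes were called and 6.26% had an unadjusted p under 0.05. DESeq2 called 2.6% of the 4738 genes it gave an adjusted p, and voom 2.67% of genes. The log2 changes ran from -0.46 for Hspe1 to 0.23 for Hspa4, and no member's groups were apart, where 1.33% of genes were apart and higher and 0.963% apart and lower. The 95% interval of the Hsph1 change was -0.12 to 0.42 and that of Hsp90aa1 -0.36 to 0.08.

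In the chronic phase Hsph1 rose in IP and was the 1 member called, where 0.18% of genes were called higher. Chronic IP held 983, 1289, 1294 and 1125 CPM of Hsph1, acute IP 651, 881, 638, 755 and 843, and healthy IP 649, 726, 648, 796 and 554. All 4 chronic libraries were above every acute and healthy library. The log2 change from healthy was 0.79 ± 0.14 (SE, adjusted p = 0.0166). That call was lost without any of 5 libraries: chronic IP replicate 2 (adjusted p = 0.0707) or replicate 3 (0.109), or healthy IP replicate 1 (0.0727), replicate 3 (0.0573) or replicate 5 (0.0669). Without the 4 IP libraries with the fewest detected genes, which include chronic replicate 3 and healthy replicate 5, it was 0.68 (adjusted p = 0.054).

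Relative to Hspa8 in the same library, Hsph1 was at 0.114 to 0.212 counts per count in healthy IP and 0.209 to 0.257 in chronic IP, with overlap (log2 difference 0.46, exact permutation p = 0.0476, adjusted p = 0.107).

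Besides Hsph1, Hspa4, Hspa4l, Hsp90aa1 and Hsp90ab1 had every chronic IP library above every healthy one, so the groups of 5 of 10 members did not overlap in that direction, against 2.87% of genes. None of these 4 was called. Hsp90aa1 was at 2950, 3662, 3571 and 3071 CPM in chronic IP and at 2320, 2239, 2783, 2742 and 2120 in healthy IP, a log2 difference of 0.44 ± 0.12 (adjusted p = 0.123). Hsp90ab1 was at 4594, 7023, 5427 and 4625 CPM in chronic IP, with replicate 2 standing highest, and differed by 0.49 ± 0.13 (adjusted p = 0.115). Hspa4 was at 612, 618, 933 and 624 CPM in chronic IP and at 464, 412, 447, 500 and 383 in healthy IP, and differed by 0.66 ± 0.18 (adjusted p = 0.126). Hspa4l, at 256 to 363 CPM against 191 to 244, differed by 0.49 ± 0.18 (adjusted p = 0.317). The DESeq2 Wald test called 4 members higher in this comparison, Hsph1, Hspa4, Hsp90aa1 and Hsp90ab1, where it called 4.21% of its 5008 genes higher.

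The other 5 members gave no such separation. Hspa8 was at 4548, 6154, 5499 and 4376 CPM in chronic IP, above or among the healthy values, with a difference of 0.33 ± 0.17 (adjusted p = 0.522). Dnaja1 (-0.20 ± 0.16) and Dnajb1 (-0.31 ± 0.23) were below 0, as was Hspe1 (-0.42 ± 0.49), and Hspd1 was at 0.19 ± 0.18. Between chronic and acute IP no member was called (0 of 13914 genes were called, 0%), though Hsph1 (0.64 ± 0.14) and Hsp90aa1 (0.58 ± 0.12) were higher without overlap, as were 1.65% of genes. There 5 members had an unadjusted p under 0.05, as did 8.23% of genes. DESeq2 and voom each called 2 members higher, Hsph1 and Hsp90aa1, where DESeq2 called 3.12% of its 2851 genes higher and voom 0.151% of genes.

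Markers of other cells also differed between the IP groups. Summed inhibitory neuron markers were at 974 to 1333 CPM in chronic IP and 565 to 790 in healthy IP, without overlap. Oligodendrocyte markers were at 1166 to 2901 and 1034 to 1327 CPM, astrocyte markers at 455 to 1352 and 257 to 544, and microglia markers at 31.8 to 125 and 3.61 to 35.2. Among the markers of these 4 cell types, 1 inhibitory neuron marker was called higher and none lower. Layer 5 markers were at 865 to 1381 CPM in chronic IP and 980 to 1236 in healthy IP, and leukocyte markers at most 2.38 CPM in chronic IP. In acute IP, summed layer 5 markers (1328 to 1920 CPM) and astrocyte markers (582 to 928) lay above every healthy IP library, with 1 marker of each called higher. The acute sums of inhibitory neuron, oligodendrocyte and microglia markers overlapped those of healthy IP. The part of other cells in the acute and chronic IP values was not tested.

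In the whole cortex several members fell. In acute input 4 of 10 were lower than in healthy input, where 8.59% of 16381 genes were called lower, and none was higher, where 11.1% were. For 3 of them the groups did not overlap, against 5.57% of genes. Hsp90aa1 fell furthest: healthy input held 1160, 1192, 1169, 1210 and 1279 CPM and acute input 944, 1009, 997, 944 and 896. The groups did not overlap, and the log2 change was -0.33 ± 0.04 (adjusted p = 9.96e-06). Hsph1 went from 358, 369, 324, 354 and 381 CPM to 345, 318, 309, 294 and 291, with overlap, a change of -0.20 ± 0.05 (adjusted p = 0.0115). Both calls held in all 10 fits that left out 1 library.

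Hspd1 and Hsp90ab1 fell by less in acute input. Hspd1 was at 192 to 209 CPM in healthy and 174 to 187 in acute input, a change of -0.14 ± 0.04 (adjusted p = 0.0242). Hsp90ab1 was at 1700 to 1787 CPM in healthy and 1557 to 1674 in acute input, a change of -0.11 ± 0.03 (adjusted p = 0.0245). The Hspd1 call was lost without acute input replicate 4 or 5 or healthy input replicate 1 or 5 (adjusted p = 0.0534 to 0.0713), and the Hsp90ab1 call without acute input replicate 4 or 5 or healthy input replicate 4 or 5 (adjusted p = 0.0558 to 0.0673). Without healthy input replicate 3, 7 members were called lower, with Hspa4, Hspa4l and Dnaja1 added. The share of all genes called lower in that fit is not given here. Hspe1 was the only member with a positive change (0.08 ± 0.05, adjusted p = 0.305).

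In chronic input 2 members fell against healthy input, where 0.409% of genes were called lower, and both were without overlap, against 2.21% of genes. Hsp90aa1 was at 1005, 1080, 1101 and 976 CPM, below every healthy library (-0.20 ± 0.04, adjusted p = 0.00961). Hsp90ab1 was at 1533, 1608, 1662 and 1497 CPM, also below every healthy library (-0.14 ± 0.03, adjusted p = 0.034). The Hsp90ab1 call was lost without chronic input replicate 1, 2 or 4 or healthy input replicate 4 or 5 (adjusted p = 0.0612 to 0.132). Between chronic and acute input none was called by edgeR, DESeq2 or voom, which called 7.69%, 10.6% and 9.74% of genes. The largest difference was that of Hsp90aa1, 0.12 ± 0.04 (adjusted p = 0.0846), the 1 member with an unadjusted p under 0.05, where 22.6% of genes had one.

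The ratio of the HSP90 genes followed the phases in input. Hsp90aa1 had 0.677 to 0.717 counts per count of Hsp90ab1 in healthy input, 0.564 to 0.618 in acute input and 0.652 to 0.671 in chronic input, and no 2 of the 3 groups overlapped. Acute differed from healthy by -0.22 and chronic from acute by 0.15 on the log2 scale (exact permutation p = 0.00794 and adjusted p = 0.0397 for each). Chronic differed from healthy by -0.07 (adjusted p = 0.0649 by that exact test). The latter p was above 0.05 before adjustment without chronic input replicate 1 or 4 (exact permutation p = 0.0536). In IP the ratio was 0.523 to 0.721 in healthy, 0.471 to 0.574 in acute and 0.521 to 0.664 in chronic mice, and these ranges overlapped. Its log2 differences in IP were -0.29 for acute against healthy (exact permutation p = 0.0317, adjusted p = 0.0794) and 0.25 for chronic against acute (exact permutation p = 0.0476, adjusted p = 0.107), the same signs as in input.

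The counts of Hspd1 per count of Hspe1 were lower in acute (1.59 to 2.01) and chronic input (1.92 to 2.05) than in healthy input (2.08 to 2.21), without overlap (exact permutation p = 0.00794 and adjusted p = 0.0397 for each). Without chronic input replicate 1 the exact p of the chronic difference was 0.0536.

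In acute input 4 of 6 microglia markers rose and 1 fell, all 4 leukocyte markers tested rose, and 2 of 6 astrocyte markers rose. Summed astrocyte markers were at 674 to 986 CPM in healthy, 992 to 1518 in acute and 960.4 to 1708 in chronic input. Summed microglia markers were at 32.1 to 50.4 CPM in healthy, 66.2 to 106 in acute and 49.2 to 106 in chronic input, and leukocyte markers at 1.53 to 2.34, 10.7 to 17.8 and 5.44 to 16.6. Layer 5 markers were at 474 to 519 CPM in healthy and 526.2 to 584 in acute input, with 1 of 6 higher and none lower. The part of these cells in the input changes was not tested.

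**Figure D4:**
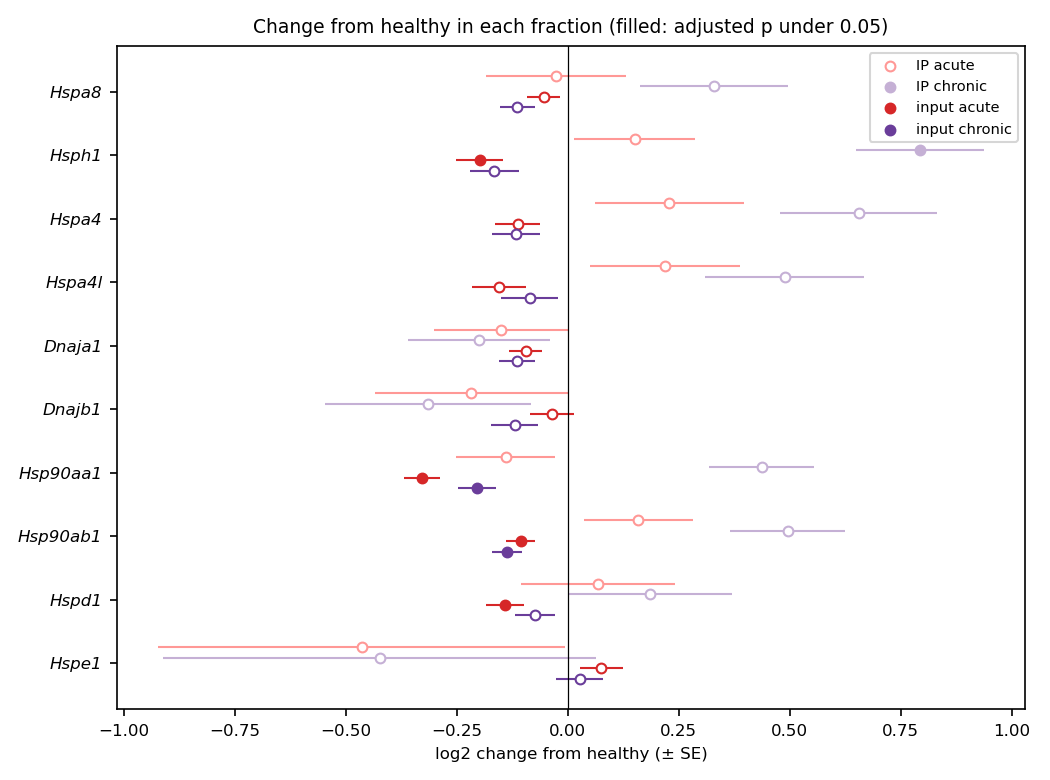
Log2 change from healthy (x axis, points, with SE as bars) of each chaperone gene in acute and chronic IP and in acute and chronic input, with filled points for an adjusted p under 0.05. Hsph1 in chronic IP (0.79) is the filled IP point, and the filled input points, from -0.11 to -0.33, lie below 0.

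Whether the change from healthy differed between IP and input was tested as an interaction over all 28 libraries. In the chronic phase 4 of 10 members changed more upward in IP than in input, where 0.633% of 16580 genes were called in that direction. They were Hsph1 (0.97 ± 0.16, adjusted p = 0.00261), Hsp90aa1 (0.65 ± 0.12, adjusted p = 0.00823), Hsp90ab1 (0.64 ± 0.14, adjusted p = 0.0277) and Hspa4 (0.78 ± 0.19, adjusted p = 0.0413). Hsph1 and Hsp90aa1 were called in all 9 fits that left out the IP and input library of 1 number, and Hsp90aa1 was not called by voom (adjusted p = 0.0711).

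The other 2 calls lay close to the threshold. Leaving out the IP and input library of 1 number, Hsp90ab1 was not called without healthy replicate 1, 2, 3 or 5 or chronic replicate 2 or 3 (adjusted p = 0.0513 to 0.0752). Hspa4 was not called without any 1 of the 5 healthy replicates or chronic replicate 2, 3 or 4 (0.62 to 0.85 on the log2 scale, adjusted p = 0.0553 to 0.117), nor with all libraries but no filter on low counts (adjusted p = 0.0693) or by voom (0.132). Hspa8 (0.45 ± 0.19, adjusted p = 0.182) and Hspa4l (0.58 ± 0.18, adjusted p = 0.0777) were not called. DESeq2 called Hspa4l too (0.59, adjusted p = 0.0358), which gave it 5 members, where it called 2.8% of genes higher. Dnaja1 (-0.08), Dnajb1 (-0.19) and Hspe1 (-0.44) were below 0. In the acute phase none of the 10 was called (0.00603% of genes were), with 3 members, Hsph1, Hspa4l and Hsp90ab1, at an unadjusted p under 0.05, as were 11.5% of genes. DESeq2 and voom called none of the members there, and 2.24% and 1.49% of genes. The cell markers also differed in the chronic interaction. Median log2 values were 0.63 for microglia, 0.61 for inhibitory neuron, 0.60 for astrocyte, 0.50 for oligodendrocyte and 0.08 for layer 5 markers. They were -0.73 for endothelial and -2.54 for leukocyte markers. There 1 layer 5 and 1 inhibitory neuron marker were called higher. The part of other cells in the interaction was not tested.

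Other chaperone genes were read from 7 lists of 82 genes, of which 81 were tested against input. In healthy mice 30 were higher in IP than in input and 3 lower, in acute mice 33 and 5, and in chronic mice 34 and 6. Of all 16580 genes tested, 7.2, 8.56 and 8.74% were called higher in healthy, acute and chronic mice, and 14.4, 10.1 and 20% lower. The same shares of all genes stand beside the counts of each list below. HSP90 co-chaperones, which load clients onto HSP90 or drive its cycle, were higher for 8, 8 and 7 of 14 genes. Ahsa1, an activator of HSP90, differed by 1.06 ± 0.11, 0.86 ± 0.11 and 1.09 ± 0.12 in healthy, acute and chronic mice, Stip1, which links HSP70 to HSP90, by 1.06 ± 0.11 in acute and 1.08 ± 0.13 in chronic mice, and Cdc37, which brings kinases, in the 3 phases by 0.88 ± 0.12, 0.98 ± 0.12 and 0.94 ± 0.14.

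The cytosolic chaperonin TRiC and prefoldin, which fold actin and tubulin, were higher for 9, 6 and 8 of 14 genes. Cct7 differed by 1.06 ± 0.13, 1.11 ± 0.13 and 1.46 ± 0.14, and Cct8 by 0.63 ± 0.12, 0.96 ± 0.12 and 1.29 ± 0.13. Among mitochondrial chaperones and proteases 3, 4 and 4 of 10 were higher, led by Hspa9, the mitochondrial HSP70, at 0.97 ± 0.11, 1.36 ± 0.12 and 1.64 ± 0.13, with the protease Lonp1 at 0.78 ± 0.16, 1.15 ± 0.16 and 1.60 ± 0.18. Of the endoplasmic reticulum chaperones 5, 7 and 7 of 14 were higher, among them Calr, which holds glycoproteins, at 1.18 ± 0.20, 1.19 ± 0.20 and 1.69 ± 0.22, and Hspa5, the HSP70 of that compartment, at 1.10 ± 0.19 in healthy and 1.41 ± 0.22 in chronic mice.

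The remaining HSP70 relatives and co-chaperones were mixed, with 5, 8 and 8 of 19 tested genes higher and 1, 2 and 4 lower. Hspa2 differed by 0.88 ± 0.16, 1.54 ± 0.16 and 1.59 ± 0.18. Hspa1a, the stress-inducible HSP70, was at 25.4 ± 13.3 CPM (SD, n = 5) in healthy IP and 7.45 ± 0.897 (n = 5) in healthy input, a log2 difference of 1.77 ± 0.34, with 2.07 ± 0.34 in acute and 1.93 ± 0.38 in chronic mice. Hspa1a and its near-identical neighbour Hspa1b share reads, so how counts divide between them is uncertain. Small heat shock proteins had a median log2 difference of -0.28 in healthy, -1.47 in acute and -0.28 in chronic mice. That of all genes was -0.23, -0.36 and -0.32. Of the 6, Cryab alone was called, an oligodendrocyte and astrocyte chaperone, lower in IP at -1.12 ± 0.31, -1.66 ± 0.31 and -1.09 ± 0.34. Its chronic call was lost without chronic replicate 1 (adjusted p = 0.09) or 2 (0.0601). The factor gene Hsf5, at a mean of 0.64 CPM in healthy input, had no counts in healthy or chronic IP.

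**Figure D5:**
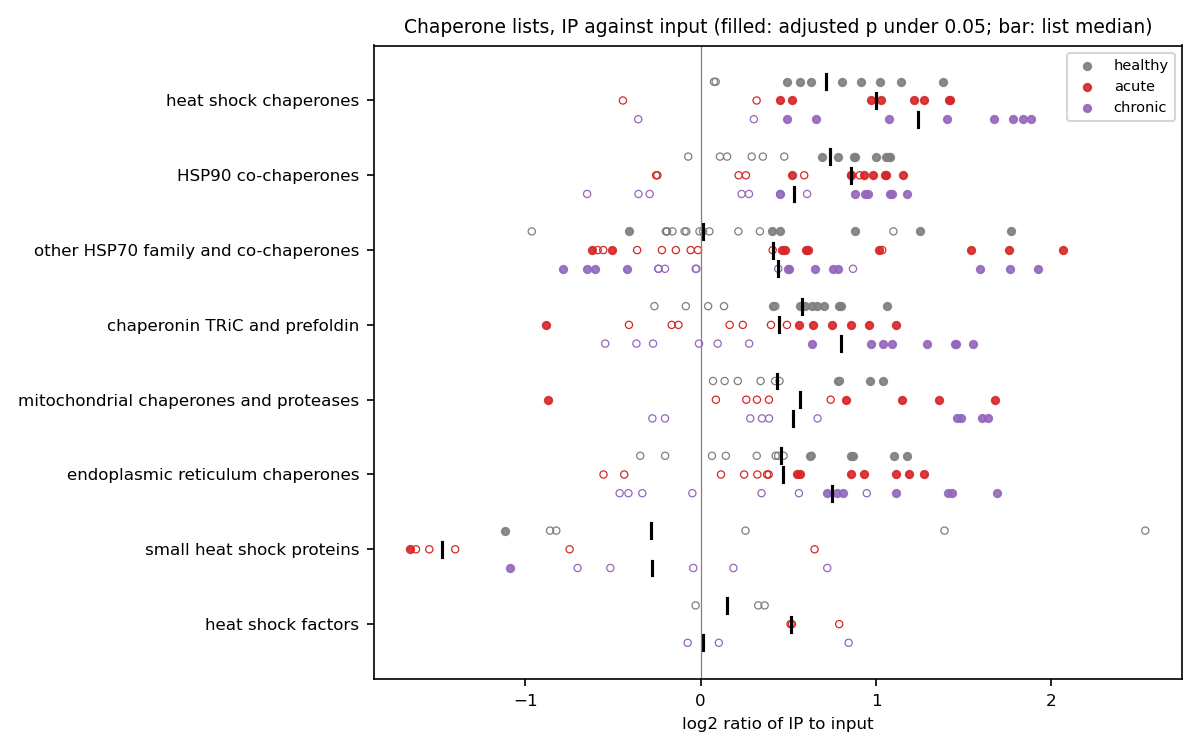
Log2 difference of IP from input (x axis) for the 10 heat shock chaperones and the genes of 7 other chaperone lists in healthy, acute and chronic mice, with filled points for an adjusted p under 0.05 and black bars at list medians over the genes tested. Hsf5, which had no counts in healthy or chronic IP, is left out of the points, and the members' medians, from 0.72 to 1.24, stand above 0.

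No gene of the 7 lists was called between phases in IP. In acute input 9 of 81 rose and 6 fell against healthy input, shares close to those of all genes (11.1% higher and 8.59% lower). The small heat shock proteins Hspb8 (0.73 ± 0.10, adjusted p = 3.16e-05) and Hspb1 (0.88 ± 0.15, adjusted p = 0.000235) rose, as did Hspa1b, from 9.69 ± 1.44 to 14.7 ± 2.02 CPM (SD, n = 5 each, log2 change 0.59 ± 0.14, adjusted p = 0.00468). Hspb1, which binds unfolded proteins without ATP, stood at only 2.89 ± 0.385 CPM in healthy input. Sdf2l1, of the endoplasmic reticulum, rose by 0.62 ± 0.13 on the log2 scale (adjusted p = 0.00253).

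The heat shock factors were split in acute input. Hsf1, the main factor of the stress response, was higher by 0.25 ± 0.06 (adjusted p = 0.00499) and Hsf4 by 0.26 ± 0.06 (adjusted p = 0.00636), and Hsf2 was lower by 0.30 on the log2 scale (-0.30 ± 0.06, adjusted p = 0.00179). Hspa9, the mitochondrial HSP70, fell (-0.17 ± 0.04, adjusted p = 0.00944). The calls of these 8 acute genes held in all 10 fits that left out 1 library, and none was called when all 28 libraries were fitted together.

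In chronic input 1 of 81 list genes fell against healthy input, where 0.409% of genes were called lower, and none rose, against 2.33%. It was Dnajb5 (-0.34 ± 0.08, adjusted p = 0.027), and the call was lost without chronic input replicate 1, 2 or 4 or healthy input replicate 1, 2 or 5 (adjusted p = 0.055 to 0.103). Against acute input 7 of 81 list genes were lower in chronic input (4.74% of genes) and none higher (2.95%). Hspb8 was 1 of the 7, a call lost without acute input replicate 1, 3 or 4 or chronic input replicate 1, 2 or 3 (adjusted p = 0.0501 to 0.109). In the chronic interaction 1 list gene was called, Hspa9 (0.67 ± 0.17, adjusted p = 0.049), which was not called without any 1 of the 5 healthy replicates or chronic replicate 2, 3 or 4 (adjusted p = 0.0553 to 0.11), with no filter on low counts (0.0801) or by voom (0.141). In the acute interaction none of the 81 was called by edgeR.

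Across the 28 libraries the members rose and fell together with the exception of Hspe1. The correlation of each gene's log CPM with the mean of the other 9 was 0.97 for Hsp90aa1, 0.97 for Hsp90ab1, 0.96 for Hspa8, 0.95 for Hspd1 and 0.94 for Hsph1, 0.85 for Hspa4 and 0.84 for Dnaja1, 0.62 for Hspa4l and 0.61 for Dnajb1, and -0.25 for Hspe1. The genes outside the members whose pattern was most like the members' mean, among the 10137 whose log2 CPM averaged 3 or more, were Tubb4b (r = 0.985), Tubb2a (0.979), Ldha (0.979), Atp5a1 (0.978) and Vcp (0.977). These points share their libraries and fall into the IP and input fractions, so the values describe that split. In the chronic interaction Tubb4b was at 0.58 and Vcp at 0.31 on the log2 scale.

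Reads shared with processed copies were few where copies were annotated. The 8 pseudogenes named after members held 1230 counts in all, and Hspd1-ps3, the largest, held 1187, which is 0.902% of the counts of Hspd1.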

How the data were processed

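Members and lists were chosen with earlier results of these data known. Libraries came from total RNA with poly A enrichment, per the labels' protocols. The deposited values are counts per gene made by the authors with featureCounts 1.5.1 on exons of Ensembl release 79 (GRCm38), without strand, per the file headers; the submitters' processing notes name STAR 2.4 and DESeq2. The header names 36 alignment files, of which 28 columns are held. The same table gives each gene's summed exon length. Symbols were found for 42462 genes (97.3%).

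In R 4.3.3, edgeR 4.0.16 kept genes by filterByExpr (minimum count 10, total 15), scaled by TMM and ran the robust quasi-likelihood F test for 11 comparisons: IP and input apart between phases (13914 and 16381 genes), all 28 libraries for IP against input and the interactions (16580). Benjamini-Hochberg adjusted p-values under 0.05 were called. Levels are CPM on the TMM scale of the 28 libraries; log CPM used a prior count of 2. Depth was 6198088 to 27915940 counts. Replicates differed beyond counting noise in all 52 pairs of a group (chi-square per degree of freedom 4.05 or more). The labels do not say whether libraries with a shared number come from the same mouse, and the correlations of their deviations did not settle it, so the main fits had no block. Members were all named; from each of the 7 lists up to 3 called genes with the smallest adjusted p in a comparison could be named, and the 5 genes most like the members' mean. Alternatives were DESeq2's size factors, no filter, DESeq2 1.42.0, a replicate block, all libraries fitted together and each replicate left out; limma 3.58.1 voom weights, a fit that drops 4 IP libraries of low gene number, and the ratio tests were added after seeing the data. The fits were also run on simulated counts, and the outcome is not given here. Figures used Python 3.11.15 and matplotlib 3.10.9.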

Additional observations from a re-analysis of the deposited data

Results flagged for a closer look

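In 3 of 60 groups of 4 or 5 libraries the highest or lowest library stood far from the rest by Dixon's criterion, which chance alone gives in about 5% of groups. Dnajb1 was at 91.9 CPM in acute IP replicate 3, where the other 4 libraries were at 135 to 143. Hspa4 was at 933 CPM in chronic IP replicate 3, where the others were at 612 to 624. Hspa4l was at 177 CPM in healthy input replicate 3, where the others were at 212 to 219.

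For 4 genes the change from healthy to chronic differed between IP and input by the interaction test of edgeR: Hsph1 by 0.97, Hspa4 by 0.78, Hsp90aa1 by 0.65 and Hsp90ab1 by 0.64 on the log2 scale, with adjusted p-values of 0.00261, 0.0413, 0.00823 and 0.0277. Without chronic replicate 3, which holds the high Hspa4 library, the Hspa4 value was 0.62 (adjusted p = 0.117).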

How the results depend on the processing

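The counts of 8 called members in each IP against input comparison stayed within 7 to 10 under every alternative, with 10 by voom in acute mice (Dnajb1 higher and Hspe1 lower in addition), and no call made in the main analysis changed direction. In that acute comparison voom called 15.1% of 16580 genes higher and 26.2% lower. In chronic IP against healthy (1 called), 4 were called by DESeq2, 5 with all 28 libraries fitted together, 0 with the replicate block, 0 without the 4 IP libraries with the fewest genes, and 0 to 1 with a replicate left out. In chronic against acute IP (0), DESeq2 gave 2, the fit of all libraries 4 and voom 2. In acute input (4), the fit of all libraries gave 0, voom 7, and leaving out a replicate 2 to 7. In chronic input (2), the block gave 1, the fit of all libraries 0, and leaving out a replicate 1 to 2. In the chronic interaction (4), the block and voom gave 2 each, no filter 3, DESeq2 5 and leaving out a replicate 2 to 4; in the acute interaction (0), leaving out the 4 libraries gave 2. DESeq2 called 4.21% of its genes higher in chronic against healthy IP, 3.12% in chronic against acute IP and 2.8% in the chronic interaction. Voom called 0.151% higher in chronic against acute IP and 0.296% in the chronic interaction, and 10.9% lower in acute input. Counts given without such a share describe the calls of their setting alone. The fit of all libraries gives both fractions a common spread. The cause of the other differences was not tested.

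Whether numbers in the labels pair the libraries was not settled: deviations of same-numbered IP and input libraries correlated by -0.01 to 0.14 in 14 pairs, 2 of them over 0.1, and 10 of 14, though not all, correlated best with their own number, a hint of pairing from the data and not from the design. Same-numbered libraries of different phases correlated by -0.11 to 0.17 in 13 IP pairs and by -0.09 to 0.11 in 13 input pairs. In fits of 1 fraction the replicate block joined libraries of the same number across phases. In fits of all 28 libraries it joined the IP and input library of the same phase and number. With the replicate block, 6 member calls were lost: Hsph1 in chronic IP (adjusted p = 0.0596), Hsp90ab1 in acute (0.0518) and chronic input (0.0886) and in the chronic interaction (0.0563), Hspa4 in that interaction (0.132) and Dnajb1 in healthy IP against input (0.0541). Hspa9 in the chronic interaction was also lost (0.144).

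Values that were not called changed sign for 12 results. With a replicate left out, the log2 values ran as follows. In acute against healthy IP, Hspa8 was at -0.168 to 0.0774. In chronic against healthy IP, Hspd1 was at -0.0354 to 0.289. In chronic against acute IP, Dnaja1 was at -0.20 to 0.0165, Hspd1 at -0.105 to 0.22 and Hspe1 at -0.243 to 0.611. In chronic against acute input, Hsph1 was at -0.0131 to 0.0734, Hspa4 at -0.027 to 0.0335 and Dnaja1 at -0.0557 to 0.00298. In healthy IP against input, Hspe1 was at -0.0149 to 0.236. In the acute interaction, Hspa8 was at -0.082 to 0.124, Dnaja1 at -0.116 to 0.0691 and Dnajb1 at -0.295 to 0.00243. Under other settings, Hspa4 in chronic against acute input was 0.0043 with the block and 0.0113 with voom, Dnaja1 in the acute interaction 0.162 without the 4 libraries and 0.0838 with voom, Hspd1 in chronic against acute IP -0.0173 and Hspe1 in healthy IP against input -0.00872, both with voom. The IP values were spread widely: the 95% interval of Hspe1 in chronic against healthy IP ran from -1.38 to 0.53. The part of depth in that spread was not tested.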
